A study of Mus musculus with 8 samples.

Results

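Lipid droplet coat and storage genes were followed in liver, 10 in all: *Cidec*, *Cideb*, *Plin2*, *Plin3*, *Plin4*, *Plin5*, *Fitm1*, *Fitm2*, *G0s2* and *Hsd17b13*. They are defined by symbol, for products that coat lipid droplets, build or fuse them, or restrain lipolysis on their surface. The definition uses no measured value, but the genes were chosen with earlier results of these data known. All 10 were found among the 18095 genes with counts, and all 10 were among the 14866 genes abundant enough to be tested. Livers of male mice were taken at 12 weeks of age and their RNA sequenced, with 4 libraries in the HFD WT group and 4 in the HFD *Inpp4b*-/- group. HFD is a high-fat diet, which in both groups was given to the dams before mating and through lactation and then to the pups. The knockout is germline, so *Inpp4b*, which encodes a phosphoinositide 4-phosphatase, is targeted in every cell of the mouse and not in hepatocytes alone. The labels give the strain of all libraries as C57BL/6, whereas the methods of the study name an FVB background, and the strain could not be settled from the counts. Total counts ranged from 25893430 to 31427831 in HFD WT libraries and from 32738435 to 36662531 in HFD *Inpp4b*-/- libraries.

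*Inpp4b* itself was too low in liver to check the genotype labels. Its raw counts were 6, 20, 5 and 8 in HFD WT replicates 1 to 4 and 33, 10, 9 and 14 in HFD *Inpp4b*-/- replicates 1 to 4. The knockout libraries were not lower, the groups overlapped, and a two-sided exact permutation test gave p = 0.486. Directions given here therefore follow the labels. Which exons the allele removes is not given in the sources used here, so reads outside them would still be counted.

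A lipid droplet is a core of triglyceride and cholesteryl ester under a single layer of phospholipid. Triglyceride made in the endoplasmic reticulum collects between the leaflets of its membrane, and the FIT proteins (FITM1 and FITM2) act where droplets emerge towards the cytosol. Perilipins bind the surface and hold back lipases, CIDE proteins gather at droplet contacts and move lipid from smaller to larger droplets, and G0S2 binds and inhibits ATGL, the lipase that starts triglyceride breakdown and is encoded by *Pnpla2*. In hepatocytes the same store also feeds the lipidation of very-low-density lipoprotein, in which CIDEB takes part. Droplets build up in the liver in steatosis, and PLIN2 is the coat protein most used to mark them.

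Of the 10 genes, 1 (*Fitm1*) rose in HFD *Inpp4b*-/- liver, 0 fell and 9 did not pass the test. A gene was called when edgeR's quasi-likelihood test gave a Benjamini-Hochberg adjusted p below 0.10 over all tested genes and a fold change above 1.3. The study used these thresholds with DESeq2, on counts from HISAT2 and from STAR, and kept genes that passed with both aligners. By the edgeR rule 174 of 14866 genes were called, or 1.17% of those tested, of which 82 were higher (0.552%) and 92 were lower (0.619%). The log2 fold changes of the 10 genes were positive for 6 and negative for 4, with a median of 0.02 beside 0.0027 for all tested genes. Without adjustment, 3 of the 10 (*Fitm1*, *Plin4* and *Hsd17b13*) had edgeR p-values under 0.05, as did 13.9% of tested genes. The groups did not overlap for 1 of the 10, *Fitm1*, whereas the values of 8.72% of tested genes did not overlap between groups, 4.63% being higher and 4.09% lower in HFD *Inpp4b*-/-. DESeq2, which called 4.31% of genes at the same thresholds, called 2 of the 10 (*Fitm1* and *Plin4*), and limma voom, which called 1.16%, called 1.

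**Figure D1:**
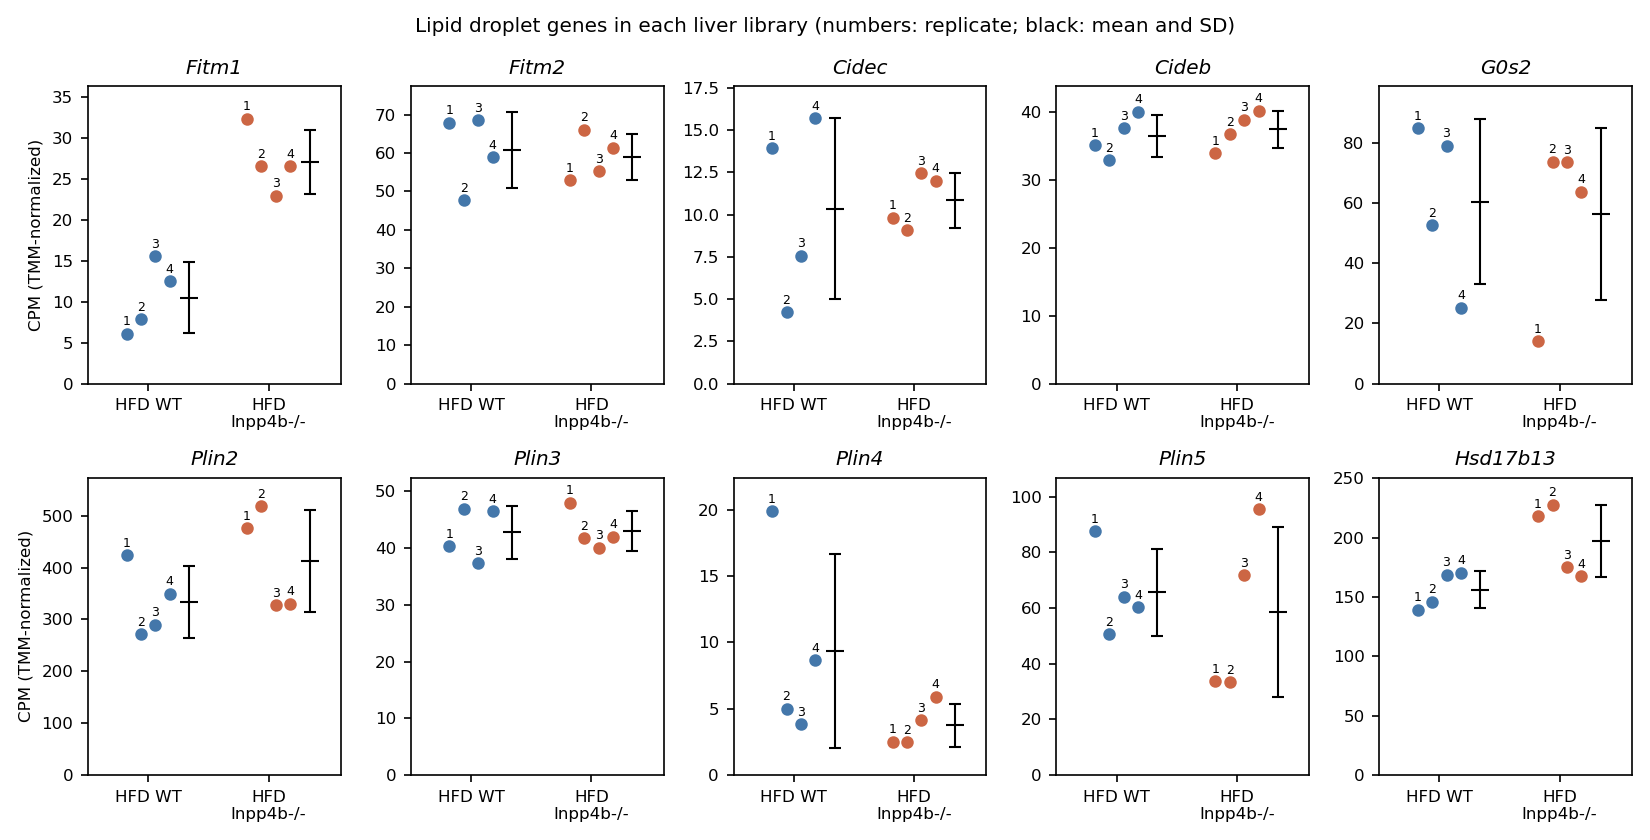
Normalized level of each of the 10 genes (CPM after TMM normalization, linear axes from 0) in the 4 HFD WT (blue) and 4 HFD *Inpp4b*-/- (red) libraries; numbers are replicates and black marks are the mean with its SD. *Fitm1* is the gene whose groups do not overlap, at 6.08 to 15.6 CPM in HFD WT and 22.9 to 32.4 CPM in HFD *Inpp4b*-/-, and *Plin2*, *Plin5* and *Hsd17b13* show HFD *Inpp4b*-/- replicates 1 and 2 apart from replicates 3 and 4.

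The FIT proteins are endoplasmic reticulum membrane proteins that bind triglyceride and are needed for normal droplet formation. FITM2 is the widely expressed form and FITM1 is best known from skeletal and cardiac muscle. *Fitm1* (ENSMUSG00000022215, GRCm38 chromosome 14, 55575617 to 55576954, plus strand) had levels of 6.08, 7.91, 15.6 and 12.5 CPM (counts scaled to 1000000 per library after TMM normalization) in HFD WT replicates 1 to 4 and of 32.4, 26.6, 22.9 and 26.5 CPM in HFD *Inpp4b*-/- replicates 1 to 4. Every knockout library lay above every wild-type library, with the closest pair being HFD WT replicate 3 and HFD *Inpp4b*-/- replicate 3. The mean rose from 10.5 ± 4.31 to 27.1 ± 3.89 CPM (SD, n = 4 per group), a 2.58-fold increase (95% interval 1.72 to 3.87) with an edgeR log2 fold change of 1.37 (standard error 0.26) and an adjusted p of 0.0667. A two-sided exact permutation test gave p = 0.0286, the smallest that 4 against 4 libraries allow. The counts behind these values were 165 to 462 reads in HFD WT and 713 to 1166 reads in HFD *Inpp4b*-/-, so counting error was small beside the spread between animals. The edgeR call was lost without any 1 of the 4 knockout libraries, with adjusted p from 0.127 to 0.179, and remained without any 1 of the 4 wild-type libraries, with adjusted p from 0.0363 to 0.0919.

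*Fitm2* (chromosome 2, 163466379 to 163472629, minus strand) did not pass the test. Its levels were 67.9, 47.7, 68.6 and 59.0 CPM in HFD WT and 52.9, 66.1, 55.3 and 61.4 CPM in HFD *Inpp4b*-/- libraries. The groups lay within the same range, and the edgeR log2 fold change was -0.04 (standard error 0.13, 95% interval -0.33 to 0.24, adjusted p = 0.912). The interval of *Fitm1* (0.78 to 1.95) lay wholly above that of *Fitm2*. The log2 ratio of *Fitm1* to *Fitm2* CPM within each library, which does not depend on library scaling, was -3.46, -2.58, -2.13 and -2.23 in HFD WT and -0.71, -1.31, -1.27 and -1.21 in HFD *Inpp4b*-/-. The ratio was higher in every knockout library than in any wild-type library, with a difference of 1.48 between the group means (two-sided exact permutation p = 0.0286, and 0.10 after Benjamini-Hochberg adjustment over the 7 ratios tested).

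Reads on the opposite strand and at neighbouring genes were examined for *Fitm1*. The antisense gene *Gm15932* covers 109 of the 971 exon bases of *Fitm1*, and whether the counting used strand is not given in the sources used here. *Gm15932* had a mean of 1.03 CPM in HFD WT and 0.839 CPM in HFD *Inpp4b*-/- and did not pass the edgeR test (log2 fold change -0.30, adjusted p = 0.803), a level well under that of *Fitm1*. Of the 16 tested genes within 100 kb of *Fitm1*, 0 were called with edgeR. The nearest sense-strand neighbour, the proteasome activator gene *Psme1* at 2.51 kb, had a log2 fold change of 0.11 (edgeR adjusted p = 0.704). DESeq2 called *Emc9*, named here after its values were seen, which lies 9.69 kb away on the opposite strand. *Emc9* had 16.5 to 22.3 CPM in HFD WT and 26.3 to 28.6 CPM in HFD *Inpp4b*-/- libraries, which did not overlap (log2 fold change 0.47, edgeR adjusted p = 0.134, DESeq2 adjusted p = 0.0246). *Pck2*, at 35.4 kb, was lower without overlap, at 5.99 to 7.51 CPM in HFD WT and 1.77 to 5.84 CPM in HFD *Inpp4b*-/- (log2 fold change -0.73, edgeR adjusted p = 0.329).

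The bases just upstream of the transcription starts of the FIT pair, of which *Fitm1* was called and *Fitm2* was not, and of *Plin2* and *Plin5*, the most abundant perilipins, are shown from RefSeq (GRCm38.p6), 5′ to 3′ on the strand of the gene. RefSeq windows were found for all 10 genes, 12 in all, and bases inside the annotated gene were left off. Capitals mark the nuclear receptor motif AGGTCA, the TATA box TATAAA, the CCAAT box CCAAT and the GC box GGGCGG, read on either strand.
Fitm1, chr14:55575424-55575616, + strand: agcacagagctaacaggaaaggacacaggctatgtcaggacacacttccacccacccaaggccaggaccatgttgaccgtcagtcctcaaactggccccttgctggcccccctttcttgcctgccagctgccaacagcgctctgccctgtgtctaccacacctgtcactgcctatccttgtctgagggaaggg
Fitm2, chr2:163472630-163472879, - strand: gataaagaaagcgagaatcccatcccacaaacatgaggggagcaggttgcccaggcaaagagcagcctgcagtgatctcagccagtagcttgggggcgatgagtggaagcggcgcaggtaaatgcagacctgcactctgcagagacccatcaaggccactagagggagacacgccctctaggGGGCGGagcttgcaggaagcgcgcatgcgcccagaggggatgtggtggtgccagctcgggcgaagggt
Plin2, chr4:86670061-86670309, - strand: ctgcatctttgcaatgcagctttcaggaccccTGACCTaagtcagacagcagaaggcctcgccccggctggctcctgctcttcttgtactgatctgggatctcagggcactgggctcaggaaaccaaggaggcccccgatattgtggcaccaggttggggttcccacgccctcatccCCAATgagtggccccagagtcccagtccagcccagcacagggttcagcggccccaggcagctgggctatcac
Plin5, chr17:56117597-56117798, - strand: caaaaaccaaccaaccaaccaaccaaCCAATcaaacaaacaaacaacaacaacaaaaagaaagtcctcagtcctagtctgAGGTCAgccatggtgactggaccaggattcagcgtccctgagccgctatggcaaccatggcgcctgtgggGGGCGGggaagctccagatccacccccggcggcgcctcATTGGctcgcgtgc
The printed *Fitm1* bases held no match to any of these motifs, and the *Fitm2* bases held a GC box 68 bases before the start. *Plin2* had the nuclear receptor motif at 218 bases and a CCAAT box at 73 bases before the start. *Plin5* had the nuclear receptor motif at 170 bases, CCAAT boxes at 224 and 62 bases and a GC box at 100 bases. These distances run to the RefSeq start, which for *Fitm1*, *Plin2* and *Plin5* lies inside the annotated gene. The printed bases, 193 for *Fitm1*, 249 for *Plin2* and 202 for *Plin5*, therefore stop short of that start. The lack of a match for *Fitm1* covers its printed bases alone. Over the 250 bases before the start, AGGTCA was found in 3 of the 12 windows beside 14.0% of 32851 promoters, CCAAT in 4 beside 33.8%, GGGCGG in 6 beside 32.7% and TATAAA in 1 beside 12.4%. The direct repeat of the nuclear receptor motif with a 1-base gap and a free base in each copy (0.338% of promoters) and the STAT palindrome TTCNNNGAA (7.02%) were in 0 of the 12. These are matches of letters and do not show binding.

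The CIDE genes gave flat means with unlike spreads. *Cidec* (also called *Fsp27*, chromosome 6, 113424634 to 113435760), the fusion protein of fat cells that is induced in fatty liver, had 13.9, 4.22, 7.58 and 15.7 CPM in HFD WT and 9.82, 9.09, 12.5 and 12.0 CPM in HFD *Inpp4b*-/- libraries. All 4 knockout values lay inside the wild-type range, and the means of 10.4 ± 5.38 and 10.8 ± 1.64 CPM (SD, n = 4) gave an edgeR log2 fold change of 0.07 (standard error 0.35, 95% interval -0.71 to 0.84, adjusted p = 0.951). *Cideb* (chromosome 14, 55754050 to 55758458), the hepatocyte form, was the steadiest of the 10 genes at 32.9 to 40.1 CPM in HFD WT and 34.02 to 40.3 CPM in HFD *Inpp4b*-/- libraries (edgeR log2 fold change 0.04, standard error 0.09, adjusted p = 0.880). Its value is uncertain, because 1136 of its 1488 exon bases are shared with *Nop9* on the opposite strand. *Nop9* had 23.2 ± 1.59 CPM in HFD WT and 19.4 ± 1.204 CPM in HFD *Inpp4b*-/- (SD, n = 4 per group) and was not called with edgeR (log2 fold change -0.26, adjusted p = 0.259). The *Nop9* groups did not overlap, at 20.8 to 24.4 CPM in HFD WT and 17.9 to 20.7 CPM in HFD *Inpp4b*-/-. Of all tested genes, 8.72% did not overlap between groups. The part of *Nop9* reads in the *Cideb* values was not tested.

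None of the 4 perilipin genes passed the edgeR test. *Plin2* (chromosome 4, 86648386 to 86670060), the main coat protein of hepatocyte droplets, which is degraded when it is not on a droplet, had 424, 272, 289.7 and 349.8 CPM in HFD WT and 476, 519, 328 and 330.4 CPM in HFD *Inpp4b*-/- libraries. Knockout replicates 1 and 2 were above every wild-type library and replicates 3 and 4 were within the wild-type range. The log2 fold change was 0.31 (standard error 0.19, 95% interval -0.12 to 0.73, edgeR adjusted p = 0.505), an interval that reaches a 1.66-fold increase. *Plin3* (chromosome 17, 56277476 to 56292873), a soluble perilipin that moves onto young droplets, stayed between 37.3 and 48.0 CPM in all 8 libraries. Its edgeR log2 fold change was 0.0066 (standard error 0.10, 95% interval -0.22 to 0.23, adjusted p = 0.980), and the sign turned with DESeq2's size factors.

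*Plin4* (chromosome 17, 56100591 to 56109803), a perilipin most abundant in white fat and muscle, had 19.9, 5.01, 3.84 and 8.68 CPM in HFD WT and 2.53, 2.50, 4.12 and 5.90 CPM in HFD *Inpp4b*-/- libraries. HFD WT replicate 1 was far above the rest, knockout replicates 1 and 2 were the lowest of all 8, and the groups overlapped. The means were 9.35 ± 7.31 and 3.76 ± 1.61 CPM (SD, n = 4 per group), and the edgeR log2 fold change of -1.31 (standard error 0.51, 95% interval -2.44 to -0.18) had an adjusted p of 0.291. DESeq2 placed it past the thresholds (log2 fold change -1.33, adjusted p = 0.0953). Without HFD WT replicate 1 the edgeR log2 fold change was -0.63, with an adjusted p of 0.596. The same library also had the lowest *Fitm1* and the highest *Plin5* of the wild-type group.

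*Plin5* (chromosome 17, 56111601 to 56117596) lies next to *Plin4* and encodes the perilipin of oxidative tissues, which tethers droplets to mitochondria. It had 87.6, 50.7, 64.0 and 60.2 CPM in HFD WT and 33.7, 33.4, 71.8 and 95.6 CPM in HFD *Inpp4b*-/- libraries. Knockout replicates 1 and 2 were the lowest of the 8 libraries and knockout replicate 4 was the highest, so that the knockout group spanned the whole wild-type range. The edgeR log2 fold change was -0.16 (standard error 0.33, 95% interval -0.91 to 0.58, adjusted p = 0.864). Of the 10 tested genes within 100 kb of *Plin4*, *Plin5* included, 0 were called with edgeR.

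*G0s2* (chromosome 1, 193272161 to 193273217), the ATGL inhibitor, varied more within each group than between them. Its levels were 85.0, 52.6, 79.1 and 25.2 CPM in HFD WT and 14.0, 73.8, 73.5 and 63.7 CPM in HFD *Inpp4b*-/- libraries. HFD WT replicate 4 and HFD *Inpp4b*-/- replicate 1 were low and the other 6 libraries were at 52.6 CPM or above. The edgeR log2 fold change was -0.10 (standard error 0.49, 95% interval -1.20 to 0.99, adjusted p = 0.948), an interval too wide to say that the gene was unaffected. *G0s2* lies inside *Lamb3* on the opposite strand but shares 0 exon bases with it.

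*Hsd17b13* (chromosome 5, 103955440 to 103977410) encodes a hepatocyte enzyme that sits on droplets and acts on retinol. It had 139, 146, 169 and 171 CPM in HFD WT and 218, 228, 175 and 168 CPM in HFD *Inpp4b*-/- libraries. Knockout replicates 1 to 3 were above every wild-type library and replicate 4 was not. The means were 156 ± 15.8 and 197 ± 30.3 CPM (SD, n = 4 per group), and the edgeR log2 fold change of 0.34 (standard error 0.12, 95% interval 0.06 to 0.61) had an unadjusted p of 0.0219 and an adjusted p of 0.272. The adjusted p ranged from 0.194 to 0.522 over the main and 16 alternative fits, so it was not called in any of them.

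**Figure D2:**
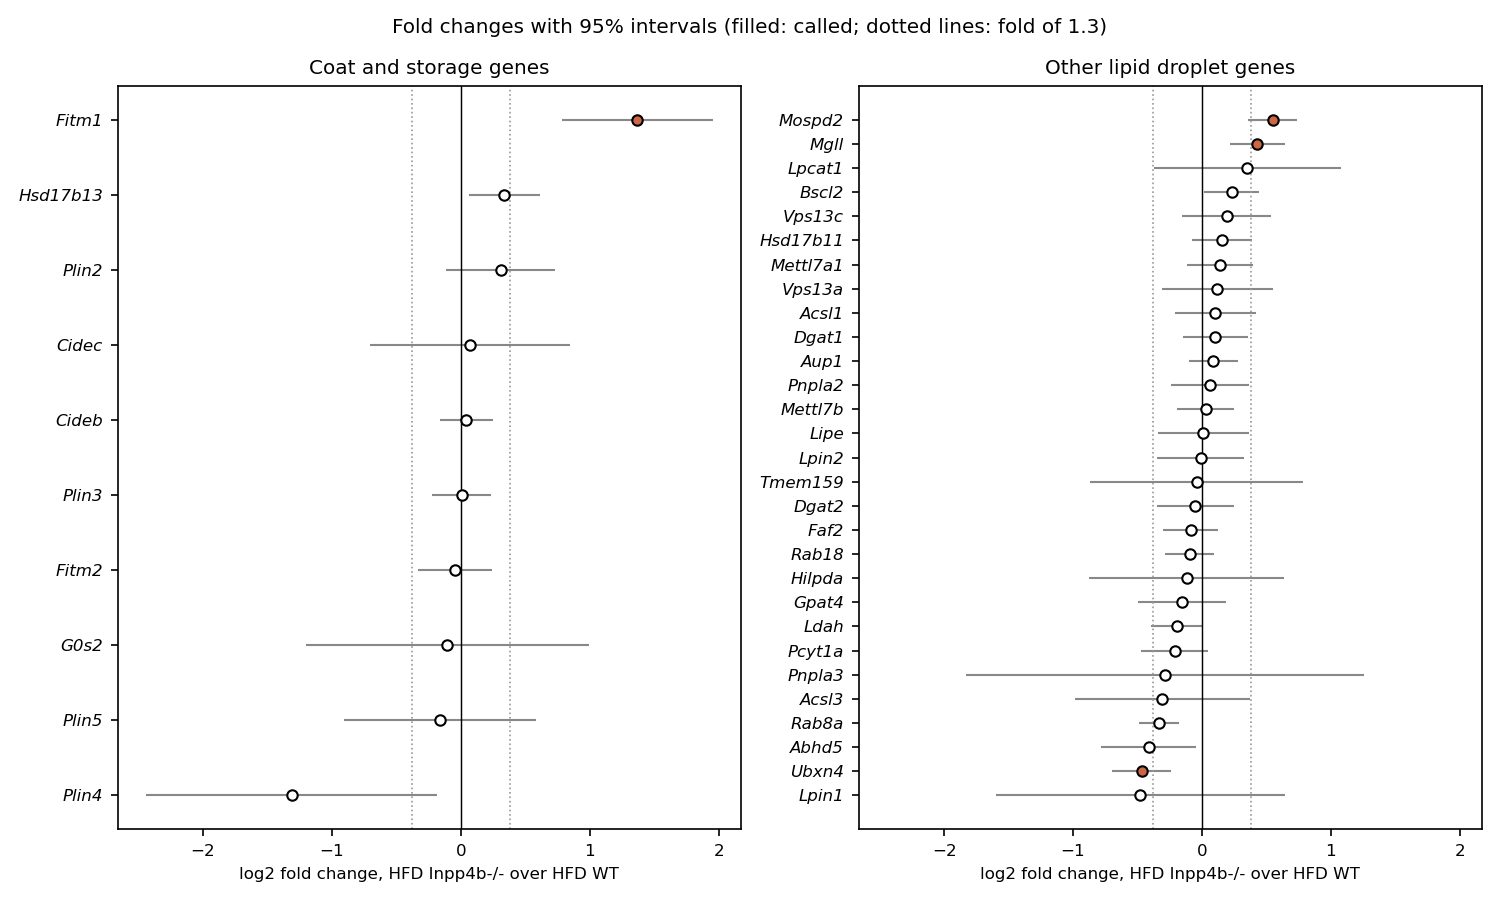
edgeR log2 fold changes (HFD *Inpp4b*-/- over HFD WT, n = 4 libraries per group) with 95% intervals for the 10 coat and storage genes (left) and 29 other lipid droplet genes (right); filled points are called and dotted lines mark a fold of 1.3. *Fitm1* is the filled point on the left at 1.37, *Plin4* at -1.31 has an interval that leaves 0 but an adjusted p of 0.291, and *Mospd2*, *Mgll* and *Ubxn4* are filled on the right.

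To compare levels between genes, CPM was divided by the length of the merged exons in kb. In HFD WT liver *Plin2* was the most abundant of the 10 genes at 95.02 ± 19.6 CPM per kb (SD, n = 4), above 96.4% of tested genes. *Hsd17b13* (72.4 ± 7.33 CPM per kb) and *G0s2* (69.4 ± 31.5 CPM per kb) followed, and then *Plin5* (31.4 ± 7.51 CPM per kb) and *Cideb* (24.5 ± 2.07 CPM per kb). *Fitm2* (15.3 ± 2.47 CPM per kb), *Plin3* (11.3 ± 1.25 CPM per kb) and *Fitm1* (10.8 ± 4.44 CPM per kb) came next, with *Cidec* at 5.58 ± 2.90 CPM per kb and *Plin4* lowest at 1.62 ± 1.27 CPM per kb. Of the 9 pairs of neighbours in this order, the values of *Cideb* and *Fitm2* alone did not overlap over the libraries of the group. Because *Cideb* shares most of its exon bases with *Nop9*, its level and its place in the order are uncertain in both groups. Within single libraries, *Plin2* over *Hsd17b13*, *G0s2* over *Plin5*, *Plin5* over *Cideb* and *Cidec* over *Plin4* also held in 4 of 4, whereas *Hsd17b13* and *G0s2*, *Fitm2* and *Plin3*, *Plin3* and *Fitm1*, and *Fitm1* and *Cidec* held their order in 2 or 3 of 4.

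In HFD *Inpp4b*-/- liver the per-length order was the same except for *Fitm1*, which moved from rank 8 to rank 5 at 27.9 ± 4.01 CPM per kb (SD, n = 4). It then stood between *Plin5* (28.1 ± 14.6 CPM per kb) and *Cideb* (25.2 ± 1.84 CPM per kb), and its values overlapped with both. *Fitm1* was below *Fitm2* per length in HFD WT means and above it in HFD *Inpp4b*-/- means, where *Fitm2* was at 14.9 ± 1.496 CPM per kb. With the length of the longest transcript in place of merged exons, *Fitm1* ranked 6 in HFD *Inpp4b*-/-, below *Cideb* (27.9 and 30.9 CPM per kb), and *Cideb* stood above *Plin5* (29.5 CPM per kb). *Plin2* remained first at 117.7 ± 28.1 CPM per kb and *Plin4* last at 0.651 ± 0.279 CPM per kb.

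**Figure D3:**
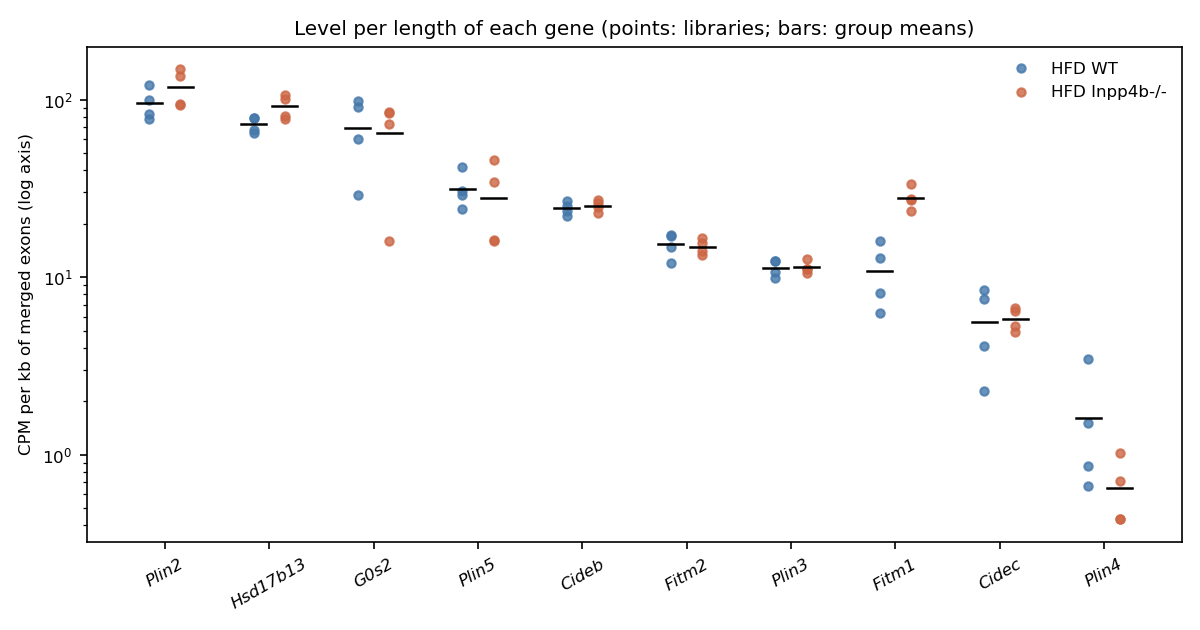
Level per length (CPM per kb of merged exons, log axis) of the 10 genes, ordered by their HFD WT mean; points are the 4 libraries of each group and bars are the group means. *Fitm1* rises from 10.8 to 27.9 CPM per kb and passes *Plin3*, *Fitm2* and *Cideb* on this length, while the other genes keep their order. With the longest transcript it does not pass *Cideb*, at 30.9 CPM per kb. The level of *Cideb* is uncertain, because it shares exon bases with *Nop9*.

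Among the perilipin transcripts, the shares of *Plin2* and *Plin5* lay close together in the 4 wild-type livers and further apart in the knockout livers. *Plin2* made up 68.3%, 67.3%, 66.7% and 70.02% of the summed CPM per kb of *Plin2* to *Plin5* in HFD WT replicates 1 to 4 and 82.2%, 84.3%, 67.2% and 61.9% in HFD *Inpp4b*-/- replicates 1 to 4. *Plin5* made up 23.7%, 21.1%, 24.8% and 20.3% in HFD WT and 9.80%, 9.14%, 24.7% and 30.1% in HFD *Inpp4b*-/- libraries. Knockout replicates 1 and 2 held more *Plin2* and less *Plin5* than any wild-type library, whereas replicates 3 and 4 did not. For *Plin3* and *Plin4* the wider spread was in HFD WT, with *Plin3* shares of 8.36% ± 1.96 in HFD WT and 7.23% ± 0.637 in HFD *Inpp4b*-/- and *Plin4* shares of 1.07% ± 0.620 and 0.424% ± 0.205 (SD, n = 4). The 2 knockout livers with the *Plin2*-rich make-up also had the highest *Hsd17b13*, and they were the 2 with the highest *Pparg* (7.55 and 8.02 CPM, beside 2.61 and 2.56 CPM in the other knockout livers and 0.409 to 3.80 CPM in HFD WT). The numbers in the sample titles are consecutive for knockout replicates 1 and 2 and stand apart from those of replicates 3 and 4. They are also consecutive for HFD WT replicates 1 to 3. Every knockout number is lower than every wild-type number, so number order and genotype cannot be told apart. What these numbers mark is not given in the sources used here. Their part in the differences between knockout livers or between the groups was not tested.

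**Figure D4:**
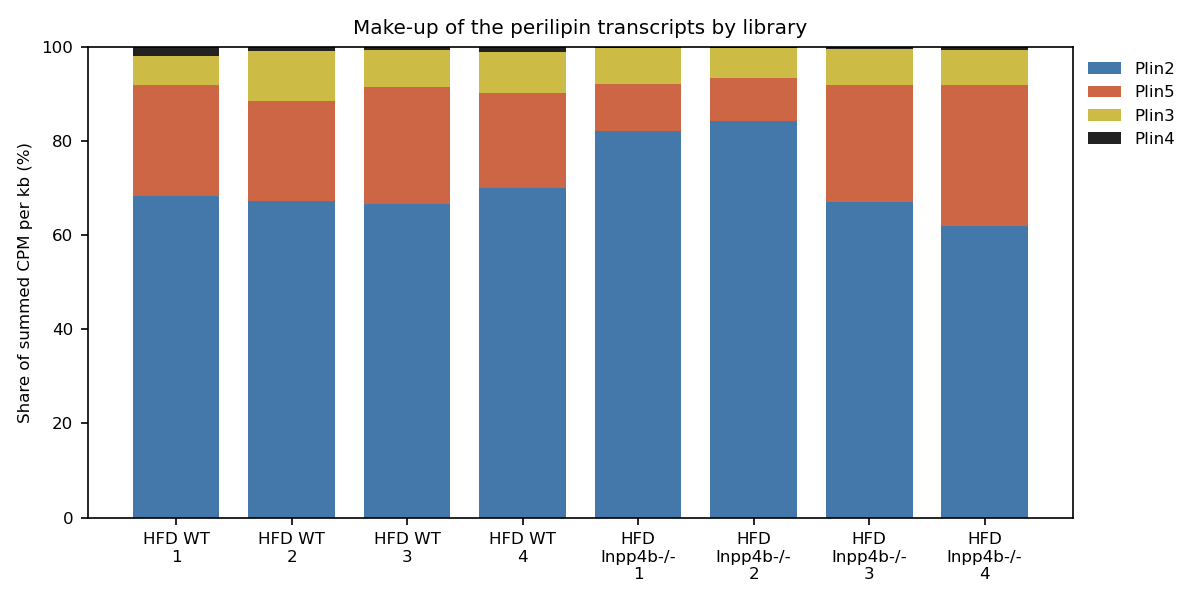
Share of each perilipin in the summed CPM per kb of *Plin2*, *Plin3*, *Plin4* and *Plin5* (stacked to 100%) in each of the 8 libraries. *Plin2* takes 66.7% to 70.02% in the HFD WT livers, 82.2% and 84.3% in HFD *Inpp4b*-/- replicates 1 and 2, and 67.2% and 61.9% in replicates 3 and 4.

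Ratios between partner genes were taken within each library, as log2 of CPM with 0.1 CPM added, and 7 were tested. Besides *Fitm1* over *Fitm2*, the groups did not overlap for *Hsd17b13* over *Hsd17b11*, its close relative beside it on chromosome 5 that also sits on droplets. That ratio was -0.60, -0.56, -0.57 and -0.59 in HFD WT and -0.39, -0.29, -0.44 and -0.51 in HFD *Inpp4b*-/- libraries. It was higher in each knockout library than in any wild-type library, with a difference of 0.17 between the group means (two-sided exact permutation p = 0.0286, adjusted over 7 ratios 0.10). *Hsd17b11* itself had an edgeR log2 fold change of 0.15 (adjusted p = 0.547). None of the 7 ratios passed 0.05 after adjustment.

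The remaining ratios overlapped between the groups. *Plin4* over *Plin2* differed by -1.39 (exact permutation p = 0.0571, adjusted 0.133) and *Plin5* over *Plin2* by -0.59 (exact permutation p = 0.400, adjusted 0.560), both with HFD *Inpp4b*-/- replicates 1 and 2 the lowest. *Plin2* over *Plin3* differed by 0.29 (exact permutation p = 0.257), *Cidec* over *Cideb* by 0.19 (exact permutation p = 0.686) and *G0s2* over its target lipase *Pnpla2* by -0.29 (exact permutation p = 0.543). *Pnpla2* had 60.7 to 90.4 CPM in HFD WT and 74.4 to 92.0 CPM in HFD *Inpp4b*-/- libraries. The lowest ratios, in HFD WT replicate 4 and HFD *Inpp4b*-/- replicate 1, fell in the libraries with the lowest *G0s2*.

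**Figure D5:**
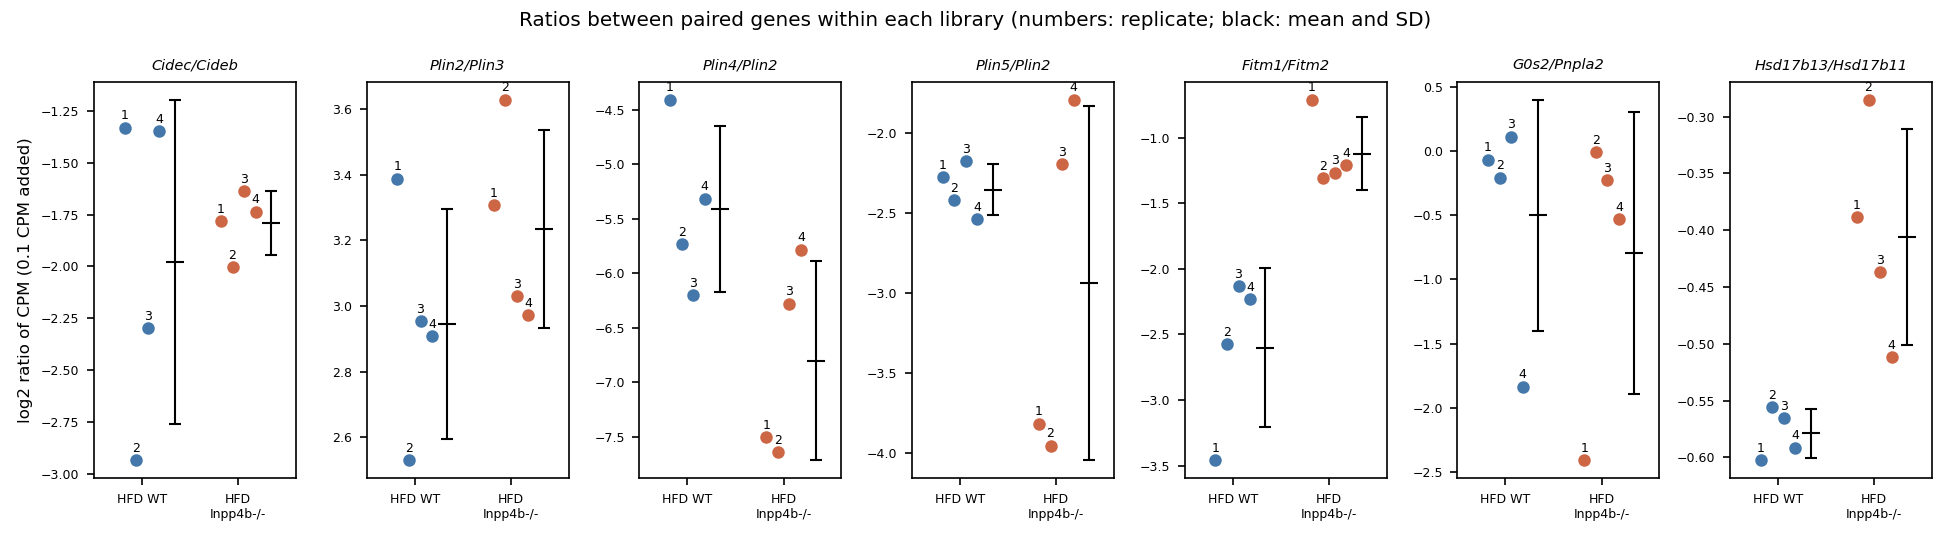
log2 ratio of CPM (0.1 CPM added) for 7 gene pairs in each library; numbers are replicates and black marks are the mean with its SD, and each panel has its own axis. *Fitm1*/*Fitm2* (group means -2.60 and -1.12) and *Hsd17b13*/*Hsd17b11* (-0.58 and -0.41) are the pairs whose groups do not overlap, and *Plin5*/*Plin2* splits the HFD *Inpp4b*-/- libraries into replicates 1 and 2 against 3 and 4.

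Other proteins that act at droplets were described from a list of 32 genes. The list held genes of triglyceride synthesis, lipolysis and droplet biogenesis, and also genes outside these themes, such as *Mospd2* and *Ubxn4*. Of the 32 genes, 29 were tested and *Plin1*, *Cidea* and *Spart* were not found by symbol among the genes analysed. With edgeR 2 rose and 1 fell (10.3% of the 29, beside 1.17% of all tested genes). Log2 fold changes were positive for 14 and negative for 15, and the median was -0.01. The list was chosen with earlier results of these data known, so its called share is a description and not a test. *Mospd2*, an endoplasmic reticulum protein that forms contacts with other organelles and droplets, rose, with 20.4 to 24.8 CPM in HFD WT and 31.5 to 34.9 CPM in HFD *Inpp4b*-/- libraries (log2 fold change 0.55, standard error 0.09, edgeR adjusted p = 0.0304). *Mgll*, the monoacylglycerol lipase that ends triglyceride breakdown, rose, with 229.8 to 269 CPM in HFD WT and 296 to 372 CPM in HFD *Inpp4b*-/- libraries (log2 fold change 0.43, standard error 0.09, edgeR adjusted p = 0.0942). *Ubxn4*, an adaptor of endoplasmic reticulum protein degradation, fell, with 135 to 176 CPM in HFD WT and 98.6 to 113 CPM in HFD *Inpp4b*-/- libraries (log2 fold change -0.47, standard error 0.10, edgeR adjusted p = 0.0942). The groups of these 3 genes did not overlap, but 1 of the 29 was called once any library other than HFD WT replicate 2 was left out. *Lpin1*, a phosphatidate phosphatase, had a log2 fold change of -0.48, larger in size than those of *Ubxn4* and *Mgll*, with 514, 114, 115 and 403 CPM in HFD WT and 138, 135, 309 and 240.3 CPM in HFD *Inpp4b*-/- libraries, and did not pass (edgeR adjusted p = 0.717).

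Of 15 transcription factors and co-factors known to regulate droplet genes, 0 passed the edgeR test, 7 had positive and 8 negative log2 fold changes, and the median was -0.04. *Pparg*, the fat-cell nuclear receptor whose targets include *Cidec* and *Plin4*, did not pass edgeR (log2 fold change 1.73, standard error 0.65, adjusted p = 0.279). *Cidec*, *Plin4* and *Plin2* had log2 fold changes of 0.07, -1.31 and 0.31 beside it. *Plin2* was highest in the same 2 knockout livers as *Pparg*. Whether *Pparg* acts on these genes in these livers was not tested. *Cebpb* (log2 fold change -0.66, edgeR adjusted p = 0.400), *Srebf1*, the driver of lipid synthesis (0.57, adjusted p = 0.492), and *Ppargc1a*, a co-activator of oxidative genes (0.33, adjusted p = 0.515), did not pass the test either. *Cebpb* was 257 CPM in HFD WT replicate 1 and 202 CPM in HFD WT replicate 4, the 2 wild-type livers with the highest *Plin4* and *Lpin1*. Its values in the other libraries are not given here, and a link between these genes was not tested.

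Because bulk liver holds several cell types, fewer cells of a type and less RNA per cell cannot be told apart in these values. The 10 hepatocyte markers were all present, led by *Alb* and *Apoa1*, with summed levels of 85444 to 95756 CPM in HFD WT and 86263 to 107218 CPM in HFD *Inpp4b*-/-. Defining markers of fat and muscle, where *Plin4* and *Fitm1* are abundant, were mostly absent: 9 of 12 adipocyte markers, *Adipoq*, *Lep* and *Cfd* among them, and 9 of 10 skeletal muscle markers, *Acta1* and *Ckm* among them, were not among the genes analysed, which each had at least 1 read in all libraries of a genotype. The 3 adipocyte markers present, led by *Adrb3* and *Fabp4*, summed to 10.2 to 20.6 CPM in HFD WT and 7.70 to 12.9 CPM in HFD *Inpp4b*-/-. Of the 2 that were tested, 1 had a positive and 1 a negative log2 fold change. The 1 muscle marker present, *Mylpf*, was at 0.346 to 0.567 and 0.388 to 0.676 CPM. Whether fat or muscle tissue had a part in the *Plin4* or *Fitm1* values was not tested. With edgeR 0 genes were called in any marker list. Summed levels were 271 to 372 and 304 to 396 CPM for stellate cells (10 of 10 present, led by *Dcn* and *Ecm1*), 59.5 to 170.2 and 105 to 198 CPM for Kupffer cells and leukocytes (9 of 10, led by *Clec4f* and *Cd5l*), 144 to 192 and 132 to 186 CPM for sinusoidal endothelium (8 of 8, led by *Stab2* and *Fcgr2b*), and 23.7 to 31.6 and 29.7 to 40.6 CPM for cholangiocytes (5 of 6, led by *Spp1* and *Sox9*). Log2 fold changes were positive for 8 of 9 Kupffer and leukocyte markers (median 0.23) and 4 of 5 cholangiocyte markers (median 0.49). They were positive for 4 of 10 stellate cell, 4 of 8 sinusoidal endothelial and 3 of 10 hepatocyte markers. The part of any of these cell types in the *Fitm1* difference was not tested.

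The 3 genes of the 10 that varied most over the 8 libraries were *Plin4*, *G0s2* and *Fitm1*, with SDs of 0.97, 0.93 and 0.88 in log2 CPM. For each, the genes whose centred log2 profile over the 8 libraries was closest were found by the root mean square difference. For *Fitm1* these were *Pcdh18* (0.23), *5730521K06Rik* (0.27) and *4930431P19Rik* (0.30), against a root mean square of 0.82 for *Fitm1* itself. For *Plin4* they were *AA986860* (0.24), *Gm37163* (0.31) and *Orm1* (0.31), an acute-phase protein gene of hepatocytes, against 0.91. For *G0s2* they were *Meg3* (0.34), *Gm43127* (0.34) and *A930024E05Rik* (0.34), against 0.87. None of these 9 genes was called with edgeR, and the likeness over 8 libraries is a description only.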

How the data were processed

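Liver RNA was sequenced from 4 HFD WT and 4 HFD *Inpp4b*-/- mice after ribosomal RNA removal. Per the submitters' processing notes, the authors used HISAT2, HTSeq and DESeq2 on GRCm38 and deposited raw counts per gene, with the strand setting and annotation release not given in the sources used here. The authors also deposited a normalized signal, which is each count divided by a library size factor. The ratio of the deposited count to that signal was checked to be constant within each library, and the raw counts were tested. The 10 genes and all lists were chosen with earlier results of these data known.

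Symbols came from GENCODE M21 (GRCm38). Genes were filtered with filterByExpr, normalized by TMM and compared with edgeR 4.0.16 (quasi-likelihood, no covariate) in R 4.3.3, with Benjamini-Hochberg adjustment over 14866 genes. The biological coefficient of variation was 0.251. Replicates of a group correlated at r = 0.958 to 0.981 (log2 CPM, across genes, which are not independent). DESeq2 1.42.0 and limma 3.58.1 (voom), other normalizations, filters and thresholds, the omission of each library in turn and the replicate number as a block were alternatives, and the code was tested on simulated counts. Single values were compared by two-sided exact permutation over 70 arrangements, and log2 ratios used 0.1 CPM added. Totals of 25893430 to 36662531 counts gave each of the 10 genes at least 91 counts in every library. Whether the mice shared litters is not given in the sources used here, so p-values measure the spread between these libraries.

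Genes named were the 10 members, *Inpp4b*, ratio partners, called genes and the 4 largest changes among the other droplet genes and among the regulators, called genes and the 2 most abundant of each marker list, genes overlapping or near members where a result turned on them, and the 3 closest profiles to each of the 3 most variable members.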

Additional observations from a re-analysis of the deposited data

Results flagged for a closer look

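In each group of 4 libraries the highest and lowest values were compared with the rest by Dixon's test, over 80 groups of values, of which chance alone would pick out about 4; it picked out 3. *G0s2* in HFD *Inpp4b*-/- replicate 1 was low at 14.0 CPM, with the nearest knockout library at 63.7 CPM. The *G0s2* to *Pnpla2* log2 ratio of HFD WT replicate 4 was low at -1.84, with the nearest wild-type library at -0.21. The *Fitm1* to *Fitm2* log2 ratio of HFD *Inpp4b*-/- replicate 1 was high at -0.71, with the nearest knockout library at -1.21.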

How the results depend on the processing

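*Fitm1* kept its direction in the main and all 16 alternative fits, with adjusted p from 7.45e-05 to 0.247. It was not called with the replicate number as a block (log2 fold change 1.44, adjusted p = 0.247 with edgeR), at an adjusted p under 0.05 (1.37, adjusted p = 0.0667), or without any 1 knockout library. The block left 26 genes called, 9 higher and 17 lower, of which 25 were among the 174, and 0 of the 10 genes and 0 of the other droplet genes. Replicate numbers did not pair the samples, since same-numbered libraries correlated at -0.114, -0.131, -0.0104 and -0.170 in their deviations from group means.

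DESeq2 called 640 genes (304 higher, 336 lower), 2 of the 10 (*Plin4* at -1.33, adjusted p = 0.0953), and 1 each of the regulators (*Pparg*) and the adipocyte (*Adrb3*), stellate cell (*Lrat*) and cholangiocyte (*Spp1*) markers, the last 3 lists having 0 with edgeR. An adjusted p under 0.05 left 71 genes (32 higher, 39 lower), 0 of the 10 and 1 other droplet gene, and library totals alone or keeping every gene with at least 1 count also left 1. *Plin3* turned to -0.0017 with DESeq2 and -0.0013 with its size factors in edgeR. Lengths of the longest transcript gave *Plin2* 176.8, *Hsd17b13* 91.5 and *Cideb* 30.1 CPM per kb in HFD WT, and in HFD *Inpp4b*-/- put *Fitm1* at rank 6 below *Cideb* at rank 4 and *Plin5* at rank 5.

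Leaving out each library gave 53 (without HFD *Inpp4b*-/- replicate 2) to 345 (without HFD WT replicate 2) called genes, over 1.5 times away from 174 without any library but HFD WT replicate 4, with 26 to 143 higher and 27 to 202 lower, 0 to 1 of the 10, 1 to 3 other droplet genes (1 without any library but HFD WT replicate 2) and 0 to 1 stellate cell markers (1 without HFD WT replicate 2). The log2 fold changes then ranged from 1.18 to 1.62 for *Fitm1*, -0.20 to 0.34 for *Cidec*, -0.015 to 0.090 for *Cideb*, 0.18 to 0.45 for *Plin2*, -0.053 to 0.049 for *Plin3*, -1.62 to -0.63 for *Plin4*, -0.50 to 0.031 for *Plin5*, -0.15 to 0.020 for *Fitm2*, -0.36 to 0.22 for *G0s2* and 0.26 to 0.41 for *Hsd17b13*. The differences in log2 ratio ranged from -0.13 to 0.40 for *Cidec*/*Cideb* and -0.74 to 0.24 for *G0s2*/*Pnpla2*. The cause of these shifts was not tested.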
